A study of Mus musculus with 12 samples.

Results

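Secreted WNT antagonists are proteins that hinder WNT signalling outside the cell. Here 9 of their genes were described over 4 genotypes of newborn mouse forebrain: Wif1, Sfrp1, Sfrp2, Sfrp5, Frzb, Dkk1, Dkk2, Dkk3 and Kremen1. They were chosen by gene symbol from the 19938 genes that had a probe set with a single symbol. Earlier results of these data were known when they were chosen. Each of the 9 had 1 such probe set. Testing was limited to genes that exceeded the 40th percentile of the array on 3 or more arrays of 12. That left 14195 genes, with 8 of the 9 antagonists among them. Sfrp5 lay under that level on all 12 arrays and was not tested. Kremen1 differs from the name of the group, since its protein is a receptor in the cell membrane and is not secreted.

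RNA was measured on postnatal day 0, with 3 biological replicates per genotype and 1 array each. GB mice carried hGFAP-cre and a Ctnnb1 allele, Ctnnb1(ex3)Fl/+, from which Cre removes exon 3 so that the beta-catenin protein escapes degradation. GS mice carried hGFAP-cre and SmoM2Fl/+, an allele for a form of Smoothened that signals without its ligand. GBS mice carried hGFAP-cre with both alleles, and their samples are labelled as tumor, while the samples of the other groups are labelled as forebrain. Control mice had the 2 floxed alleles but no Cre transgene, so an effect of Cre itself cannot be told apart from that of an allele in any comparison with Control. The human GFAP promoter drives Cre in radial glia, the precursors of forebrain neurons and glia, so recombination starts in those cells and passes to their descendants.

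WNT proteins bind Frizzled receptors together with the co-receptors LRP5 and LRP6, which protects beta-catenin from destruction and lets it switch on target genes with TCF and LEF factors. WIF1, the SFRP proteins and FRZB bind WNT proteins outside the cell. DKK1 and DKK2 bind LRP5 and LRP6 instead, KREMEN1 is a receptor for DKK proteins, and DKK3 is the divergent member of the DKK family. All of them act at the cell surface, upstream of beta-catenin, and some are themselves targets of WNT signalling and thus part of negative feedback in the developing cortex.

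The values are log2 expression values made by RMA, on which a difference of 1 is a 2-fold difference. They compare 1 gene across arrays and not genes with each other. Differences were tested with limma over all 14195 genes, and a gene was called at a Benjamini-Hochberg adjusted p under 0.05, two-sided. Array medians ran from 6.52 to 6.69, and the 5 forebrain identity genes with a probe set of their own (Emx1, Emx2, Lhx2, Otx1 and Six3) averaged 7.19 to 7.88 per array. The 3 arrays GB replicate 2, GS replicate 3 and Control replicate 3 deviated from their groups together, with correlations of the deviations of 0.739 to 0.833 across genes, and calls on the 9 genes that change without them are given with and without them. In whole tissue, fewer cells of a type and less RNA per cell cannot be told apart.

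Wif1 set the group apart by size. It encodes WNT inhibitory factor 1, which binds WNT proteins directly. Control arrays read 6.60, 6.77 and 6.84, GS arrays 6.48, 6.44 and 6.70, GB arrays 7.66, 7.24 and 7.49, and GBS arrays 9.67, 10.05 and 10.004. All GBS arrays lay over 2 units above every other array, the GB arrays lay above all Control and GS arrays, and Control and GS overlapped. GBS exceeded Control by 3.17 ± 0.14 (SE), a 9.01-fold rise (limma adjusted p = 2.18e-06). It exceeded GB 5.45-fold (adjusted p = 1.72e-05) and GS 10.3-fold (adjusted p = 1.15e-06). These 3 calls held under every alternative tried, the omission of each array included.

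With the beta-catenin allele alone the reading was smaller and less certain. GB minus Control was 0.73 for Wif1 (95% interval 0.42 to 1.03), a level above that of every Control array, but it did not pass over all genes (adjusted p = 0.661). In that comparison limma called 0 of 14195 genes, and an unadjusted p under 0.05 was reached by 129 higher and 27 lower genes. Without the 3 arrays that deviate together Wif1 was called higher in GB than in Control (0.89, adjusted p = 0.0247). GS minus Control was -0.20 (95% interval -0.50 to 0.11, adjusted p = 0.645). The order of the group means was GBS, GB, Control and GS, and the last 2 did not differ beyond their spread. GS minus GB was -0.92 with no overlap (adjusted p = 0.0941), and Wif1 was called lower in GS than in GB without the deviating arrays (-1.11, adjusted p = 0.00796) or without GB replicate 2 alone (-1.03, adjusted p = 0.0205).

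**Figure D1:**
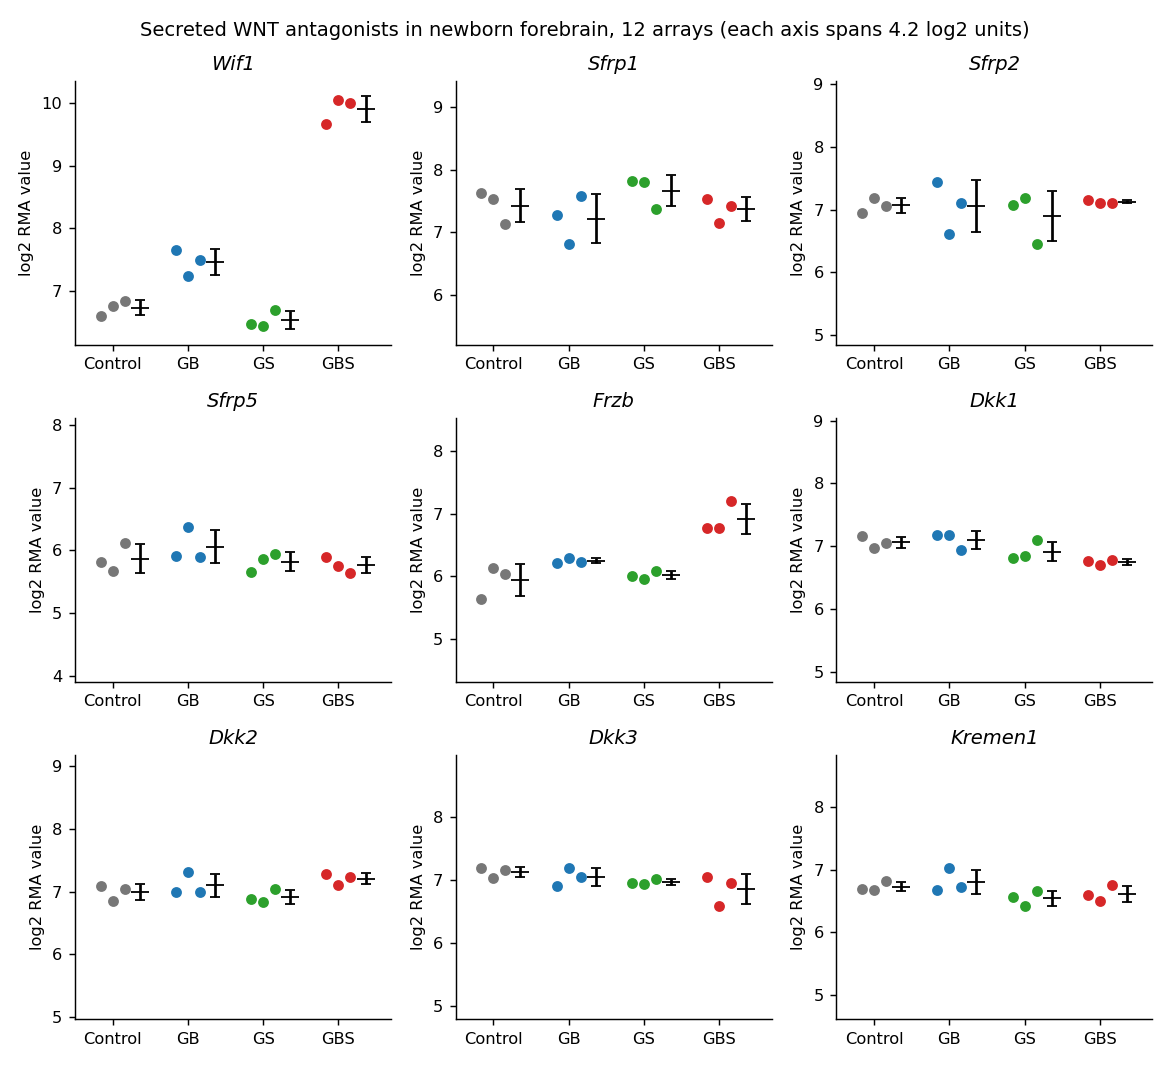
Log2 expression values of the 9 genes by genotype, 1 colored point per array, with the mean and standard deviation of 3 arrays in black beside them. All panels span the same number of log2 units. The Wif1 points of GBS (9.67 to 10.05) and, less far, the Frzb points of GBS (6.77 to 7.20) lie above all other arrays, and the other 7 genes show no such step.

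The 2 alleles together gave more Wif1 than the sum of each alone. The GB and GS differences from Control add up to 0.53, and the GBS difference was 3.17. The interaction, that is the effect of the beta-catenin allele with SmoM2 minus its effect without SmoM2, was 2.64 ± 0.20 (SE, limma adjusted p = 0.000576). Control lacked Cre, so any effect of Cre enters both single-allele differences and is not cancelled in the interaction. Among all genes tested 0.331% were called for the interaction, and Wif1 was the only member called. The arrays differ in sex, since Xist, which silences an X chromosome in females, read 8.66 to 10.83 in GS replicates 2 and 3 and GB replicates 2 and 3, and at most 5.02 elsewhere. With the Xist level as a covariate the interaction of Wif1 was 2.57 with an adjusted p = 0.0659, so its call was lost there, as were those of all genes tested, and it held in the other alternatives. The part of sex in the interaction beyond this was not tested.

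Among the SFRP family, proteins that bind WNT through a domain like that of the Frizzled receptors, only Frzb was called higher in GBS. Frzb, also known as Sfrp3, read 5.65, 6.13 and 6.05 on Control arrays, 6.22, 6.30 and 6.24 on GB arrays, 6.01, 5.96 and 6.09 on GS arrays and 6.77, 6.78 and 7.20 on GBS arrays. The GBS arrays lay above all others, GB lay narrowly above Control and GS, and Control and GS overlapped. GBS exceeded Control 1.96-fold (0.97 ± 0.14 SE, limma adjusted p = 0.00198), GS 1.86-fold (adjusted p = 0.00594) and GB 1.58-fold (adjusted p = 0.0174). Frzb passed the filter only through its 3 GBS arrays, so a difference was built into its being tested. Without any filter the adjusted p was 0.00208 against Control, 0.0193 against GB and 0.00635 against GS.

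Not all Frzb calls were stable. The rise over Control held in each alternative that kept the gene, and the filter at the 60th percentile removed it. The rise over GB ended without GBS replicate 3 (0.52, adjusted p = 0.0503), and with the Xist level as a covariate the rises over GB and GS had adjusted p = 0.0977 and 0.063. It also ended at a threshold of 0.01 and when only the GBS and GB arrays were fitted (adjusted p up to 0.1 over the alternatives). The interaction for Frzb was 0.58 (adjusted p = 0.454). GB minus Control was 0.31 (95% interval -0.01 to 0.63).

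Sfrp1, which is made in the germinal zone of the embryonic cortex, stayed within its spread in the main fit. It read 7.63, 7.53 and 7.13 on Control arrays, 7.27, 6.81 and 7.58 on GB arrays, 7.82, 7.80 and 7.38 on GS arrays and 7.53, 7.16 and 7.43 on GBS arrays. The ranges of all 4 groups overlapped, and GBS minus Control was -0.06 (95% interval -0.52 to 0.40, adjusted p = 0.828). Replicate 2 of GB and replicate 3 of GS and of Control, the arrays that deviate together, were the lowest of their groups for Sfrp1. Without them GBS minus GS was -0.44 and was called lower (adjusted p = 0.0339), against -0.29 with them (adjusted p = 0.513). In that comparison 17% of all genes were called without these arrays, and 5.07% with them. The median of 1212 olfactory and vomeronasal receptor probe sets was taken as a measure of each array's low end. It was 4.84 to 4.91 in GBS, 4.87 to 5.22 in GS, 5.01 to 5.35 in GB and 5.11 to 5.22 in Control. GBS arrays lay below all GB and Control arrays, so against those groups this covariate cannot be told apart from genotype. With the receptor level as a covariate GBS minus GS of Sfrp1 was also called lower (-0.53, adjusted p = 0.0341).

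Sfrp2, a further WNT-binding member of the family, was nearly level in the tumors. The GBS arrays read 7.15, 7.11 and 7.11, and Control 6.95, 7.19 and 7.06. GB ranged from 6.61 to 7.45 and GS from 6.45 to 7.19, and the lowest values again came from GB replicate 2 and GS replicate 3. GBS minus Control was 0.06 (95% interval -0.42 to 0.54, adjusted p = 0.831). Sfrp5, the untested member, ranged from 5.65 to 6.36 over the 12 arrays, below the filter throughout, and its GBS minus Control was -0.10 (95% interval -0.44 to 0.23).

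None of the 3 DKK genes was called in the fit over all 12 arrays. Dkk1, which blocks LRP6 and is itself a target of WNT signalling in many tissues, read 7.16, 6.97 and 7.05 on Control arrays, 7.18, 7.18 and 6.94 on GB arrays, 6.81, 6.84 and 7.09 on GS arrays and 6.76, 6.70 and 6.78 on GBS arrays. The GBS arrays were the lowest of the 12. GBS minus Control was -0.32 ± 0.11 (SE; limma adjusted p = 0.0653) and GBS minus GB -0.35 (adjusted p = 0.0506), just short of the threshold. The medians over all genes tested were -0.10 and -0.11 in these comparisons.

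The Dkk1 differences lay so near the threshold that several alternatives gave a call. Without the 3 arrays that deviate together GBS minus Control was -0.32 and was called lower (adjusted p = 0.0235). That size was the same as with them, and 42.4% of all genes were called there, against 15.3% in the main fit. Leaving out GB replicate 2 alone (adjusted p = 0.0302, 43.2% of all genes called) or GS replicate 3 alone (adjusted p = 0.0439, 18%) also gave a call. GBS minus GB was called lower in 7 of 25 alternatives. Among these were the omission of the deviating arrays (-0.31, adjusted p = 0.0387), of GS replicate 3 (adjusted p = 0.036) or of GB replicate 3 (adjusted p = 0.0307), and 3 settings that left all arrays in with equal weight (adjusted p = 0.0475, 0.0498 and 0.0417). Under these omissions 24.2%, 15.4% and 22.9% of all genes were called, against 12.7% in the main fit. With the olfactory receptor level as a covariate GBS minus Control was -0.12 (adjusted p = 0.525) and GBS minus GB -0.18 (adjusted p = 0.358).

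Dkk2, which can act on LRP6 in either direction depending on the presence of KREMEN proteins, had the same order of group means as Wif1, with much smaller steps. It read 7.28, 7.11 and 7.23 in GBS, 6.99, 7.31 and 6.996 in GB, 7.09, 6.85 and 7.04 in Control, and 6.88, 6.83 and 7.04 in GS. Its GBS arrays lay above all Control and GS arrays and overlapped GB. GBS minus Control was 0.22 (95% interval -0.03 to 0.47, adjusted p = 0.169) and GBS minus GS 0.29 (95% interval 0.04 to 0.54, adjusted p = 0.186). Without the deviating arrays GBS minus GS was called higher (0.35, adjusted p = 0.0257), where 17% of all genes were called, against 5.07% in the main fit. With the olfactory receptor level as a covariate Dkk2 was called higher in GBS than in Control (0.45, adjusted p = 0.0126) and than in GS (0.41, adjusted p = 0.00566).

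Dkk3 read 7.05, 6.58 and 6.95 in GBS and 7.19, 7.03 and 7.16 in Control, with overlap, and differed by -0.27 (95% interval -0.54 to 0.00, adjusted p = 0.132).

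Kremen1, the DKK receptor, was level as well. It read 6.69, 6.68 and 6.82 on Control arrays, 6.67, 7.03 and 6.73 on GB arrays, 6.56, 6.42 and 6.65 on GS arrays and 6.59, 6.51 and 6.75 on GBS arrays. All GS arrays lay below those of Control and of GB, by less than 0.3 on average, and neither difference passed (GS minus Control -0.19, adjusted p = 0.645). GBS minus Control was -0.11 (95% interval -0.37 to 0.14, adjusted p = 0.433).

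**Figure D2:**
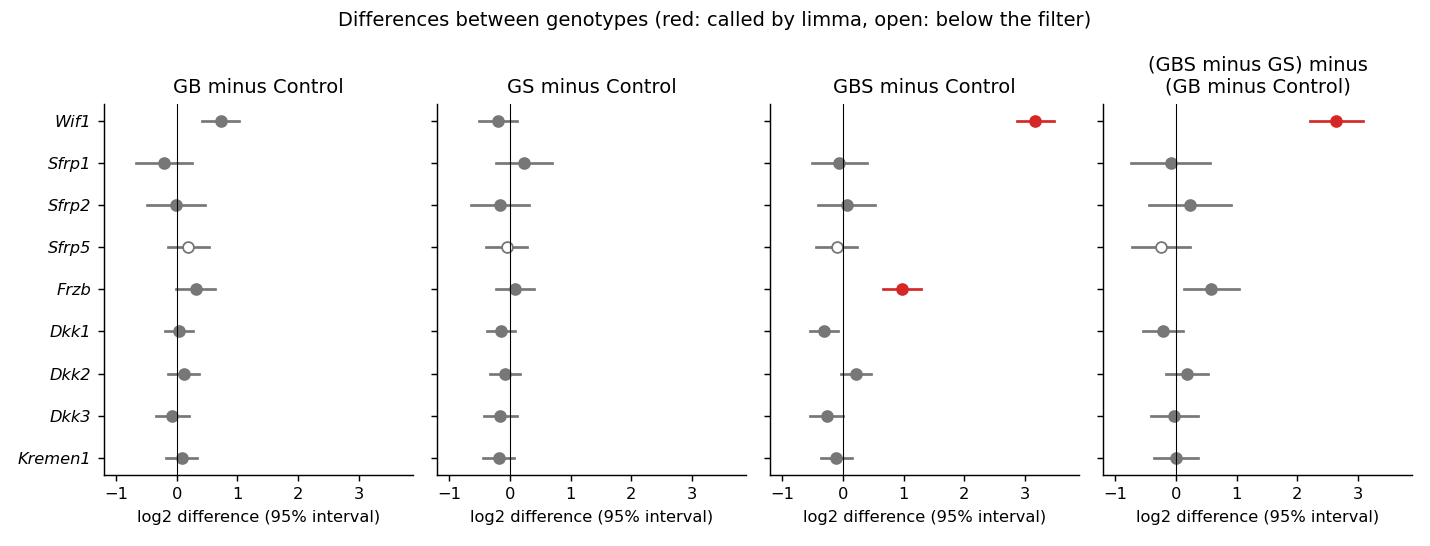
Log2 differences of the 9 genes between genotypes and for the interaction, with 95% intervals from limma, over 3 arrays per group. Red marks genes called over all genes tested, grey those not called, and open circles Sfrp5, which lay below the filter. Wif1 (3.17) and Frzb (0.97) are red in GBS minus Control, and Wif1 alone in the interaction (2.64).

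Counted together, 2 of the 8 tested members were called higher and 0 lower in GBS against Control, where 15.3% of all genes tested were called, 11% higher and 4.35% lower. Against GB 2 were higher and 0 lower, where 12.7% of all genes were called, 9.6% higher and 3.12% lower. Against GS 2 were higher and 0 lower, where 5.07% of all genes were called, 3.56% higher and 1.51% lower. In each of these the members called were Wif1 and Frzb, and since Frzb was tested only because of its GBS arrays, these counts do not support a statement about the members. In GB minus Control, GS minus Control and GS minus GB limma called 0 of 8 members, where the background was 0%, 0.0211% and 0.0141%, the last with 0.00704% in each direction. At an unadjusted p under 0.05, 1 member was higher and 0 lower in GB against Control (129 and 27 of all genes), 0 differed in GS against Control (508 and 331), and 0 were higher and 2 lower in GS against GB (628 and 487). For GBS, 2 members were higher and 1 lower against Control (2854 and 2657 of all genes), 2 and 1 against GB (3114 and 2814), and 3 and 0 against GS (1517 and 1124). For the interaction 2 members were higher and 0 lower at that unadjusted p (687 and 471 of all genes). Frzb was among the higher members of the GBS comparisons and the interaction, so those counts do not support a statement about the members either. By adjusted p, 1 member was called higher and 0 lower for the interaction, where 0.324% of genes were called higher and 0.00704% lower. The median change of the 8 members in GBS minus Control was 0.00, and that of all tested genes -0.10.

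The arrays of GBS and Control did not overlap for 4 of the 9 members, where 64.6% of all genes tested did not. The members were Wif1, Frzb and Dkk2, higher in GBS as were 28.8% of genes, and Dkk1, lower as were 35.7%. GB lay apart from Control for Wif1 and Frzb, both higher, with a background of 4.1%, 3.01% higher and 1.09% lower. Frzb lay below the filter level on all Control, GB and GS arrays and was tested only through GBS. None of the counts of this kind that include Frzb, here or in the comparisons below, therefore supports a statement about the members. The 9 members include Sfrp5, which was not tested and overlapped in each comparison. GS lay apart from Control for Dkk3 and Kremen1, both lower, with a background of 17.5%, 8.09% higher and 9.43% lower. GBS lay apart from GB for 3 members (Wif1 and Frzb higher, Dkk1 lower), with a background of 47.9%, 24.2% higher and 23.7% lower. GBS lay apart from GS for 4 members (Wif1, Frzb and Dkk2 higher, Dkk1 lower), with a background of 28.9%, 16.5% higher and 12.4% lower. GS lay below GB for 3 members (Wif1, Frzb and Kremen1), a count that again includes Frzb. In that comparison 9.56% of genes lay apart, 4.45% higher and 5.11% lower. The group means spanned 3.37 units for Wif1 and 0.97 for Frzb, and 0.22 to 0.44 for the other 6 tested members. The median span over all genes tested was 0.325, and 4 members lay below it.

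**Figure D3:**
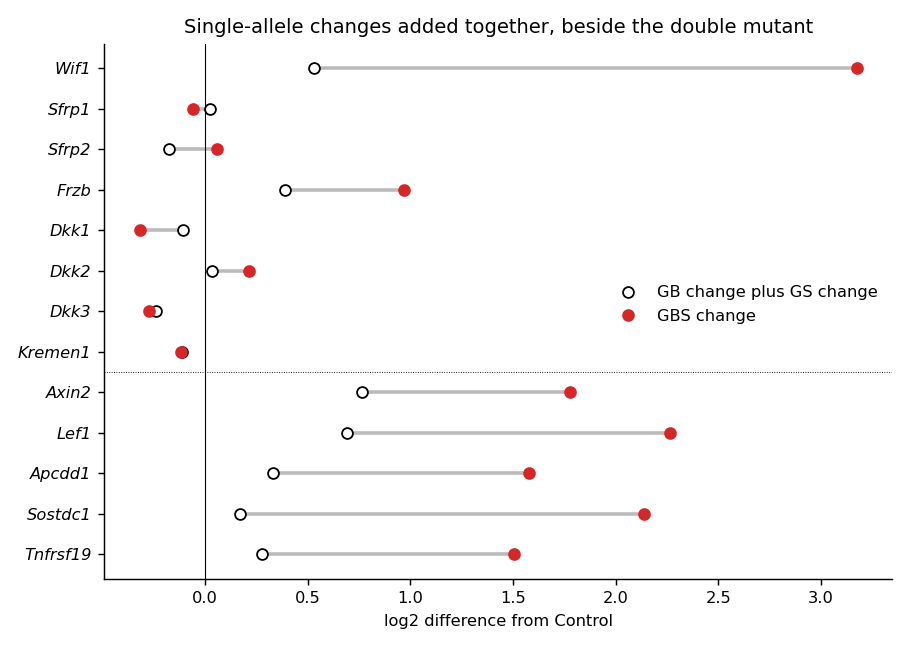
For each tested antagonist (above the dotted line) and 5 other WNT pathway genes (below it), the sum of the GB and GS differences from Control (open circles) and the GBS difference from Control (red circles), in log2 units. The distance between the circles is the interaction; it is widest for Wif1 (0.53 against 3.17) and near 0 for Kremen1 and Dkk3.

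The genes whose levels followed Wif1 most closely over the 12 arrays were Tnfrsf19, a TNF receptor family member and WNT target (Pearson r = 0.995), Pde3a, a phosphodiesterase (r = 0.992), and Gadd45a, a stress response gene (r = 0.988). After the group means were taken out, r over the same 12 arrays was 0.688, 0.506 and 0.77. For Frzb they were Mcee, an enzyme of propionate breakdown (r = 0.970), Apcdd1, a membrane-bound WNT inhibitor (r = 0.958), and Cd44, a hyaluronan receptor (r = 0.955). These values describe genes that share the same arrays and the same 4 group levels.

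Sequence upstream of the start of transcription is shown for the 2 members called higher in the tumors and for Dkk1, a WNT target by background whose value was not higher. RefSeq's promoter table, build GRCm38.p6, held 6 of the 9 members (Wif1, Dkk1, Dkk2, Sfrp2, Sfrp5 and Frzb). Each sequence is the 250 bases before the gene's start, 5′ to 3′ on the gene's strand. The windows were searched on both strands for the letters that TCF and LEF factors favor, namely the heptamer CTTTGAA, the heptamer CTTTGAT, the heptamer CTTTGTA and the heptamer CTTTGTT, and matches stand in capitals.
Wif1, chr10:121033754-121034003, plus strand: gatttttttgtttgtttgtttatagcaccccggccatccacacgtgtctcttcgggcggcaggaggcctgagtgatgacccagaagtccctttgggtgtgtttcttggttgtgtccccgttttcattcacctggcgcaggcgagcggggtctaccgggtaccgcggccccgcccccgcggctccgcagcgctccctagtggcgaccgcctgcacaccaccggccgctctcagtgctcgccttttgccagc
Frzb, chr2:80447397-80447646, minus strand: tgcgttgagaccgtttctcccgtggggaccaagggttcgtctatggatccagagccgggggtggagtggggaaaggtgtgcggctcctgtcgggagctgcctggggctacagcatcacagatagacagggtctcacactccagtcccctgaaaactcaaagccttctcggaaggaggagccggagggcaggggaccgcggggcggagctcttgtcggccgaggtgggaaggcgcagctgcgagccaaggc
Dkk1, chr19:30549497-30549746, minus strand: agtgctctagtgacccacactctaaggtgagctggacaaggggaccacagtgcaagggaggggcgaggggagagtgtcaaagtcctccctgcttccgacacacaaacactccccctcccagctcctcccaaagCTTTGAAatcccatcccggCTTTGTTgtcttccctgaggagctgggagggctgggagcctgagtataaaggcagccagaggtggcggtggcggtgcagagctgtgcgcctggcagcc

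Of these 6 windows 1 held a match, that of Dkk1, with CTTTGAA starting 117 and CTTTGTT starting 98 bases before the gene. At least 1 match was found in 14.8% of the 32851 windows of that length which RefSeq lists. The windows of Wif1 and Frzb hold none of the 4 heptamers, which says only that these letters are not in this stretch. Wif1 has 21 CpG dinucleotides in its window, Frzb 16 and Dkk1 6, and the median over all windows was 6.

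Other antagonists of the pathway included some that rose in the tumors. Of 13 genes, 11 were tested, and in GBS against Control 4 were higher and 0 lower, with a median of -0.04, where 11% of all genes were higher and their median was -0.10. Sostdc1, a secreted protein that binds LRP6 and also BMP ligands, read 6.83, 6.79 and 7.06 in Control and 8.47, 9.28 and 9.33 in GBS, a 4.39-fold rise (adjusted p = 0.000189). Apcdd1 rose 2.99-fold (adjusted p = 0.000103), and Notum, an enzyme that strips the lipid from WNT proteins, rose 1.48-fold (adjusted p = 0.00528). These 3 rises held under every alternative tried. Against GB 4 were higher and 1 lower (9.6% and 3.12% of all genes), and against GS 4 higher and 0 lower (3.56% and 1.51%). The lower one, Igfbp4, was named after its value was seen (-0.39, adjusted p = 0.0337), and its call ended without any of 6 arrays, among them GBS replicate 1 or 2.

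Among 17 tested WNT ligand genes of 19, 1 was higher and 1 lower in GBS against Control (11% and 4.35% of all genes), with a median of -0.26. Wnt5a, a ligand best known for signalling without beta-catenin, read 6.01, 5.96 and 6.19 in Control and 7.28, 8.07 and 7.29 in GBS, with no overlap, and rose 2.83-fold (adjusted p = 0.000755). Wnt16 was called lower (-0.36, adjusted p = 0.0411), a call that ended without any of 8 single arrays, GBS replicate 2 or any Control array among them, with adjusted p up to 0.346 over the alternatives.

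Receptor genes were tested for 15 of 16, with 5 higher and 0 lower in GBS against Control (11% and 4.35% of all genes) and a median of 0.02. Lrp6, the co-receptor that DKK1 binds, read 7.86, 7.92 and 7.66 in Control and 8.36, 8.61 and 8.49 in GBS, a difference of 0.67 (adjusted p = 0.0238). Its arrays did not overlap, but the call ended without GBS replicate 2 or 3 or any single Control array and with the olfactory receptor level as a covariate (0.22, adjusted p = 0.177). Lrp5, its relative, differed by -0.05 (adjusted p = 0.782). The Frizzled gene Fzd1 rose 1.70-fold (adjusted p = 0.00714), under every alternative tried. Ryk, a WNT receptor of the kinase type, rose 1.63-fold (adjusted p = 0.0144), and Fzd3 2.69-fold (adjusted p = 0.0226). Both of the last calls ended without GBS replicate 2 or Control replicate 1 or 3, for Fzd3 also without Control replicate 2, and with the olfactory receptor level as a covariate, with adjusted p up to 0.12 and 0.194.

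The R-spondin axis raises the number of WNT receptors on the cell and holds the ligases that remove them. Here 8 of 9 genes were tested, with 4 higher and 1 lower in GBS against Control (11% and 4.35% of all genes) and a median of 0.40. The receptor ligase gene Znrf3 rose 1.90-fold (adjusted p = 0.00165), under every alternative tried. The ligand gene Rspo2 was lower in GBS, at -0.50 (adjusted p = 0.0111), and lost that call when GBS replicate 2 or replicate 3 of Control was left out (highest adjusted p = 0.057). The receptor gene Lgr6 rose 1.66-fold (adjusted p = 0.0128), and its call ended without Control replicate 1 or 2 (adjusted p up to 0.052).

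**Figure D4:**
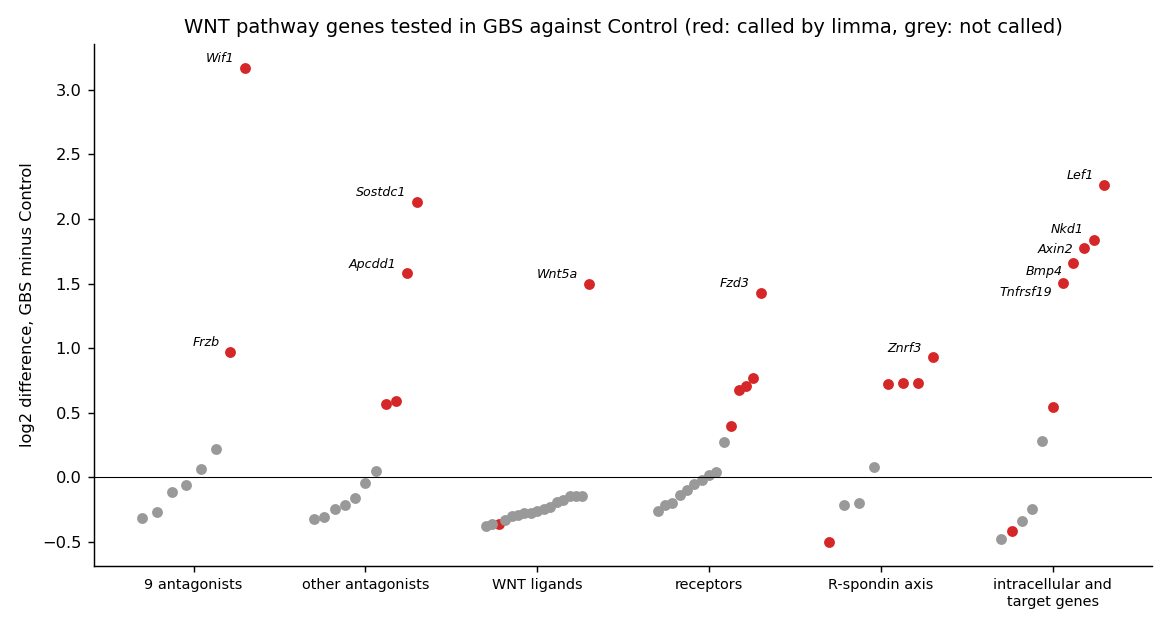
Log2 differences between GBS and Control for every tested gene of the 9 antagonists and of 5 other lists of WNT pathway genes, 1 point per gene, ordered by value within a list. Red points were called by limma and grey ones were not; called genes that differ by more than 0.9 are named. Wif1 has the highest value of all genes plotted (3.17), and all genes not called lie below 0.3.

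Intracellular feedback and target genes were tested for 11 of 14, with 6 higher and 1 lower in GBS against Control (11% and 4.35% of all genes) and a median of 0.54. Axin2, a feedback gene of the destruction complex, read 6.99, 7.04 and 7.18 on Control arrays, 7.88, 7.58 and 7.95 on GB arrays, 7.15, 7.16 and 7.01 on GS arrays and 8.66, 9.04 and 8.85 on GBS arrays. Lef1 encodes a transcription factor through which beta-catenin acts. Its group means were 9.84 for GBS, 8.39 for GB, 7.57 for Control and 7.44 for GS. Against Control, GBS was higher by 1.78 for Axin2 (adjusted p = 2.42e-05), by 2.27 for Lef1 (adjusted p = 3.34e-05) and by 1.503 for Tnfrsf19 (adjusted p = 1.7e-05). Cdx1, named after its value was seen, was the lower one (-0.42, adjusted p = 0.0451), and lost that call in 15 of 25 alternatives (highest adjusted p = 0.384). Axin2 and Lef1 both had the group order of Wif1 at the top, GBS then GB, with GB arrays above all Control arrays. Lef1 (0.82) and Axin2 (0.73) did not pass in GB minus Control, as Wif1 did not. Their interactions were smaller, 1.57 for Lef1 (limma adjusted p = 0.0261) and 1.01 for Axin2 (adjusted p = 0.0421). The Lef1 call was lost without any 1 of 8 arrays and the Axin2 call without any 1 of 10. Both calls also ended with quantile normalization, the replicate number as a block, a threshold of 0.01 and the Xist level as a covariate. Over all alternatives the highest limma adjusted p was 0.568 for Lef1 and 0.899 for Axin2.

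Some cell type markers were also called in GBS against Control, where 11% of all genes tested were higher and 4.35% lower. Of 7 tested radial glia markers 5 were higher (Prom1, Vim, Pax6, Slc1a3 and Sox2) and 1 lower (Fabp7) in GBS against Control. The 8 markers averaged 8.23 to 8.35 per GBS array against 7.60 to 7.73 per Control array. The Sox2 call ended in 7 of 25 alternatives and the Fabp7 call in 2. The calls of Prom1, Vim, Pax6 and Slc1a3 held in every alternative. Of 6 tested choroid plexus and hem markers only Clic6 was higher and 0 were lower. The list averaged 6.38 to 6.74 in GBS and 6.30 to 7.02 in Control. Its defining gene Ttr was not called and varied widely within each group other than GBS. It read 5.63, 5.93 and 5.72 on GBS arrays and 6.03, 5.896 and 9.96 on Control arrays. On GB arrays it read 5.79, 6.39 and 10.21, and on GS arrays 9.92, 9.49 and 6.08.

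Of 6 tested meningeal markers Dcn was higher in GBS against Control and 0 were lower, while the collagen genes Col1a1 (7.83 to 8.01 in GBS, 8.05 to 8.26 in Control) and Col1a2 were not. The list averaged 6.78 to 7.04 in GBS and 6.33 to 6.68 in Control, with Dcn (GBS minus Control 3.79) included. Its median change was -0.07, beside -0.10 for all genes tested, so these averages do not show a rise of the list as a whole. Of 8 subpallial markers 3 were lower (Dlx1, Dlx5 and Dlx6) and 0 higher, of 8 markers of postmitotic neurons 1 was lower (Gap43), and no endothelial or microglial marker passed. Of all genes tested 11% were higher and 4.35% lower. The calls ended in 14 of 25 alternatives for Dlx1, 13 for Dlx5, 6 for Dlx6 and 5 for Gap43, omissions of single arrays among them. The lowest adjusted p was 0.0852 among 7 endothelial markers (Rgs5) and 0.0542 among 4 microglial ones (Csf1r). The part of any cell type in the levels of Wif1 and Frzb was not tested.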

How the data were processed

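Total RNA of 12 forebrain or tumor samples was labelled with biotin and hybridised to Affymetrix arrays, 1 array per sample. The deposited table holds log2 values. Per the submitters' processing notes the authors used RMA and Affymetrix Expression Console; software version and probe set library: not given in the sources used here. RMA corrects background and equalises arrays, so a general shift in RNA amount is removed. Of 35556 probe sets, 21789 had 1 symbol, 1621 several and 12146 none in the platform annotation; symbols were updated through a RefSeq table (GRCm38.p6).

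The probe set with the highest mean stood for a gene. limma 3.58.1 in R 4.3.3 fitted 1 mean per genotype over all 12 arrays, with 8 residual degrees of freedom, and 7 contrasts. The script was tested on simulated data. Array number limits the precision. The genes named are the 9 antagonists, Lrp6, Lrp5, Axin2 and Lef1, the called genes with the lowest adjusted p in each pathway list, called cell type markers and the 3 genes most correlated with each called antagonist. Members and lists were chosen with earlier results of these data known. Replicate numbers were not treated as pairs in the main fit. Deviations of same-numbered arrays correlated at -0.818 to 0.739 over 18 pairs, 7 of them above 0.1. This mixed range cannot show whether the numbers pair the samples. Alternatives covered the filter, probe set choice, normalization, variance model, arrays fitted, threshold, replicate number, olfactory receptor level, Xist level and the omission of arrays.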

Additional observations from a re-analysis of the deposited data

Results flagged for a closer look

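The effect of the beta-catenin allele differed with and without SmoM2 by the limma interaction test for 8 genes. They came from a screen of every tested gene in the antagonist, pathway and cell type lists, not only of the genes named above. Among all genes tested 0.331% were called. Differences without SmoM2 were taken against Control, which lacked Cre, so they include any effect of Cre. For Wif1 the allele's difference was 3.37 with SmoM2 and 0.73 without, an interaction of 2.64 (adjusted p = 0.000576). Tnfrsf19 had an interaction of 1.22 (adjusted p = 0.00476), and both of these calls ended only with the Xist level as a covariate. The WNT inhibitors Sostdc1 and Apcdd1 had interactions of 1.97 (adjusted p = 0.0261) and 1.25 (adjusted p = 0.0273). Lef1 had 1.57 (adjusted p = 0.0261) and Axin2 1.01 (adjusted p = 0.0421). The BMP ligand gene Bmp4 had 1.48 (adjusted p = 0.0261), and Emx2, a transcription factor of the dorsal forebrain, 1.41 (adjusted p = 0.0125). The call ended in 15 alternatives for Axin2, in 12 each for Lef1, Sostdc1, Apcdd1 and Bmp4, and in 6 for Emx2.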

How the results depend on the processing

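Of the 8 tested antagonists, the number called was 2 in GBS minus Control, GBS minus GB and GBS minus GS, 1 for the interaction and 0 in the other comparisons. The filter at the 60th percentile gave 1 in GBS minus Control (18.7% of all genes called) and 1 in GBS minus GS (6.21%). Array weights gave 4 in GBS minus Control (Wif1, Frzb, Dkk1 and Dkk2; 50.5% of all genes called), 1 in GB minus Control (Wif1; 0.606%), 2 in GS minus Control (Dkk1 and Kremen1; 44.8%) and 2 in GS minus GB (Wif1 and Sfrp1; 9.41%). In GBS minus GB the count was 1 with only the groups compared (0.542% of all genes called) and with a threshold of 0.01 (2.43%). The Xist level as a covariate gave 1 in GBS minus GB (1.85%), 1 in GBS minus GS (0.993%) and 0 for the interaction (0%). Leaving out the 3 arrays that deviate together gave 1 in GB minus Control (0.183% of all genes), 4 in GBS minus GS (17%) and 1 in GS minus GB (0.634%). The olfactory receptor level as a covariate gave 4 in GBS minus GS (15.3%) and 1 in GS minus GB (0.106%), and quantile normalization gave 1 in GS minus GB (0.0423%). Leaving out each array in turn gave 1 to 3 in GBS minus GB, where 2.97% to 22.9% of all genes were called. The count there was 1 without GBS replicate 3 (6.89%). In GS minus GB these omissions gave 0 to 1, with 1 without GB replicate 2 (0.0704%). With the replicate number as a block the count was 2 in GBS minus Control (8.33% of all genes) and 2 in GBS minus GB (5.11%). It was 2 in GBS minus GS (2.76%) and 1 for the interaction (0.12%). Over all genes, GBS minus Control gave 1556 higher and 617 lower; it gave 3483 and 3679 with array weights, 3459 and 3095 with only the groups compared, 3331 and 2686 without the deviating arrays, 993 and 190 with the block, 591 and 61 at 0.01, and 812 and 1080 with the receptor level. Single omissions ranged from 631 and 78 without GBS replicate 2 to 3268 and 2865 without GB replicate 2. The causes of these shifts were not tested. Dim genes such as Sfrp5 and Frzb are limited by signal over background.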
